A study of Arabidopsis thaliana with 6 samples.

Results

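Floral determinacy regulators are the genes that end stem cell activity in the centre of a flower, so that a fixed number of whorls is made. The 7 genes described here are KNUCKLES (KNU, AT5G14010), CRABS CLAW (CRC, AT1G69180), SUPERMAN (SUP, AT3G23130), ULTRAPETALA1 (ULT1, AT4G28190), PERIANTHIA (PAN, AT1G68640), REBELOTE (RBL, AT3G55510) and SQUINT (SQN, AT2G15790). They were chosen for their known role, with earlier results of these data known, and were taken by identifier. All 7 were among the 17675 genes of the deposited table, with at least 1 read per 1000000 (RPM) in every library.

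In the Arabidopsis flower the homeobox gene WUSCHEL (WUS) keeps stem cells active in the meristem and also helps to switch on AGAMOUS (AG). AG in turn leads to the loss of WUS, in part through KNU, a zinc finger repressor that acts on WUS. PAN and ULT1 are known as activators of AG, CRC and SUP act in the carpel and at the border of the stamen and carpel whorls, and RBL and SQN end meristem activity redundantly with ULT1. ARF3, an auxin response factor that is also called ETTIN, acts in the same process, and the study relates it to AG, auxin and cytokinin.

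The plants carried the transgene ARF3:ARF3-GR in the mutant arf3-29, and this genotype was shared by all 6 libraries. GR is the steroid-binding domain of the glucocorticoid receptor, which keeps a fused protein out of the nucleus until dexamethasone is supplied. Inflorescences of plants 3 weeks old, grown at 23 °C in days of 16 h light and 8 h dark, were treated with 10 µM DEX in DMSO or with DMSO, each with 0.015% Silwet L-77, and flowers of stage 7 and later were dissected off. There were 3 DMSO and 3 DEX libraries, and no DEX-treated plants without ARF3-GR were analysed here, so responses to the steroid and to ARF3-GR cannot be told apart.

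Between 10703769 and 14469527 reads per library fell on the listed genes. The library DEX-3 stood apart from the other DEX libraries, with Spearman correlations across genes of 0.985 and 0.987 to them, against 0.991 between every other pair within a treatment. Markers of the labelled tissue were present, the summed level of LFY, AP1, CAL, UFO, SEP3 and STM being 609 to 656 RPM in DMSO and 567 to 643 RPM in DEX. Of these 6, SEP3 rose, STM (AT1G62360) and CAL (AT1G26310) fell, and the inflorescence meristem gene TFL1 (AT5G03840) did not pass (limma adjusted p = 0.472). Of 7 markers of anthers 4 were measured, and 3 of these rose, AMS (AT2G16910) and MS2 reaching the 1 RPM minimum of the table through DEX alone. AT5G07230 rose from 4.07 ± 0.403 to 9.36 ± 1.17 RPM (SD, n = 3), while SPL/NZZ (AT4G27330), an early anther gene, was lower in every DEX library, at 5.33 to 6.36 against 7.11 to 7.62 RPM, and did not pass (limma adjusted p = 0.144). The sum of the 4 was 11.6 to 12.6 RPM in DMSO and 19.9 to 22.0 RPM in DEX. Since this sum includes AMS and MS2, the minimum of the table favours a higher sum in DEX. MS2 (AT3G11980), a pollen wall enzyme gene of the tapetum, was at 0 in all 3 DMSO libraries, which allows up to 0.220 to 0.241 RPM. In DEX, MS2 had 4.20, 2.49 and 2.45 RPM.

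PAN, ULT1 and KNU fell with DEX, CRC rose, and SUP, RBL and SQN did not pass the test. Differences are log2 fold changes, DEX minus DMSO, of RPM with 1 RPM added, and a gene passed when its adjusted p in limma was under 0.05. Of the 7 genes 4 passed, a share close to that over the whole table, where 57.7% of genes passed. In one direction, 3 of 7 fell and 1 of 7 rose, against 28.1% and 29.6% of all genes. The DEX and DMSO values did not overlap for 3 of 7 genes, against 62.9% of all genes. The median difference of the 7 genes was 0.07, beside 0.004 over all genes. The counts for these genes therefore lay near the background of this comparison. The libraries are of whole young inflorescences, so fewer cells that express a gene and less RNA per cell cannot be told apart.

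**Figure D1:**
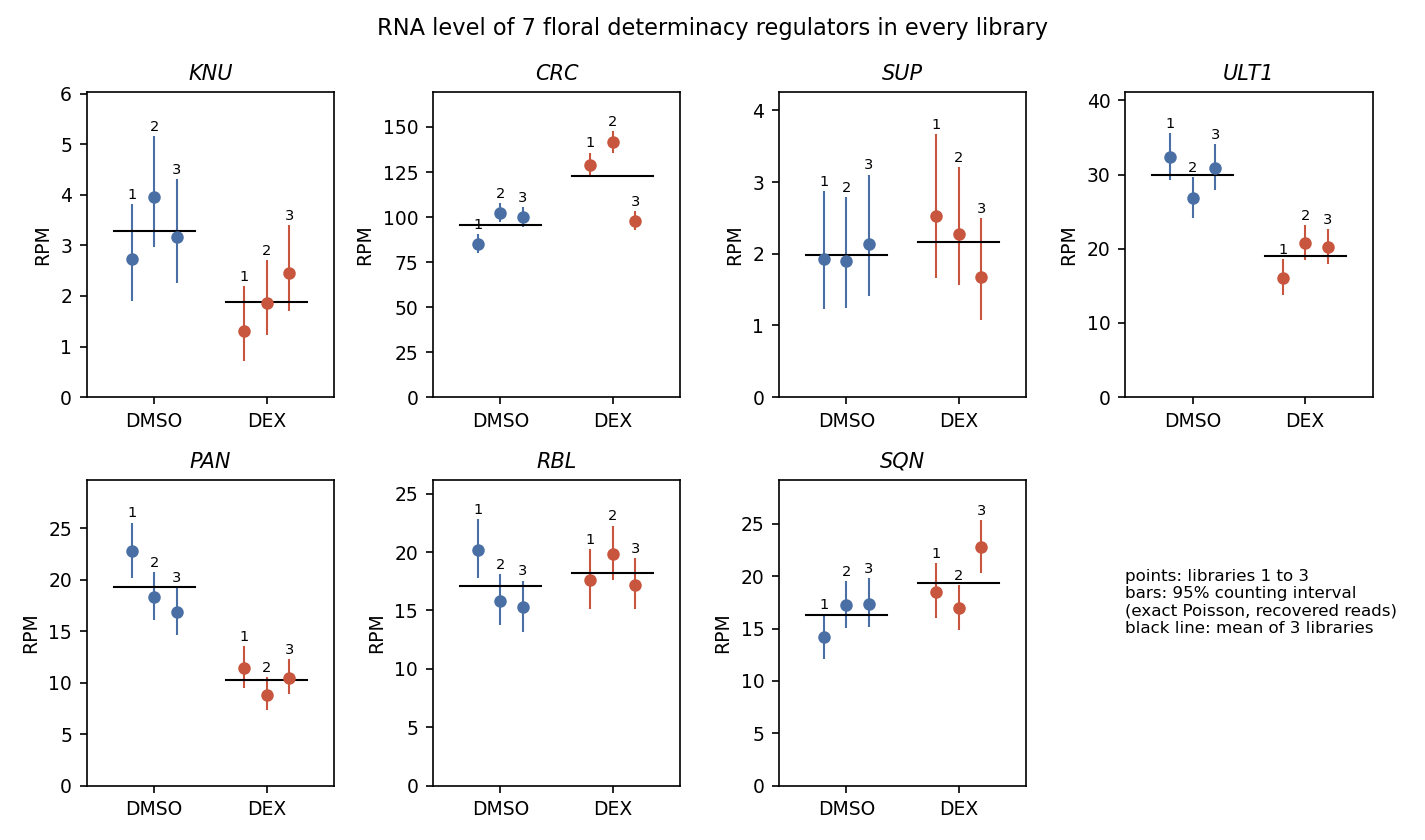
RNA level in RPM (vertical axis, from 0) of each of the 7 genes in the 3 DMSO and 3 DEX libraries. Points are libraries, numbered as labelled, bars are 95% exact Poisson intervals of the recovered reads, and the black line is the group mean. For PAN, ULT1 and KNU every DEX point lies below every DMSO point, and for CRC the library DEX-3 lies among the DMSO points.

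The stretches around the gene starts of the 3 genes that fell, and of SQN, are shown because auxin response factors are known to bind the element TGTCTC, and ULT1 and SQN are the genes of the set that hold it there. Each runs from 250 bases before the annotated start to 50 bases after it in RefSeq TAIR10.1, matched by gene identifier. The deposited table has no coordinates and names no build, and the reference is of the accession Columbia. The positions are chr1:25772601-25772900 (minus strand) for PAN, chr4:13984445-13984744 (plus strand) for ULT1, chr5:4521899-4522198 (plus strand) for KNU and chr2:6880849-6881148 (minus strand) for SQN. Capitals mark TGTCTC or, for a match on the other strand, GAGACA.
PAN: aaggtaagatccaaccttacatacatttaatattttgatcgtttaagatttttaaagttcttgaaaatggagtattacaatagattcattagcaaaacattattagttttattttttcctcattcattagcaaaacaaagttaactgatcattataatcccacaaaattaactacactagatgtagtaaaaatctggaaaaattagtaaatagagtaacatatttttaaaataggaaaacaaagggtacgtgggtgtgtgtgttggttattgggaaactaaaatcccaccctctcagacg
ULT1: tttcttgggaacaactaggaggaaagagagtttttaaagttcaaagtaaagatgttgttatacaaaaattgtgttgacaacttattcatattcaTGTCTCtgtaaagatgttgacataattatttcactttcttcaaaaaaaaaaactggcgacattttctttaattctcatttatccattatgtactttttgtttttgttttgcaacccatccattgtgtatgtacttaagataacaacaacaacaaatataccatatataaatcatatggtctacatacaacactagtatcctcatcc
KNU: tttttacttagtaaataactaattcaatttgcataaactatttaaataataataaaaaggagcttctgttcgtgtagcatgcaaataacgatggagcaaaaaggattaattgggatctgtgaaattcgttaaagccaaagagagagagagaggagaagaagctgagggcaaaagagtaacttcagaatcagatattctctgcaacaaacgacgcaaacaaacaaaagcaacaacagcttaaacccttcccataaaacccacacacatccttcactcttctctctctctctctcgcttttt
SQN: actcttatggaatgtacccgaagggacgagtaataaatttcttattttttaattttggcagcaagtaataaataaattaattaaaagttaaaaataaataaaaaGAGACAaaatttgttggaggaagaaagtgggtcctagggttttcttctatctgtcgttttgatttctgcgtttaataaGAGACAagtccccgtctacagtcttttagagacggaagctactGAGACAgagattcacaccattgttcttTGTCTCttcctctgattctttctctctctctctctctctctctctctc
Of the 7 windows 2 held TGTCTC on either strand, against 14.1% of 27561 windows of the same length at protein-coding genes. ULT1 had 1 match, which begins 156 bases before the start, and SQN had 4, which begin 146, 68 and 25 bases before the start and at base 3 after it. TGTCGG, a variant that auxin response factors bind, TGACG, the core bound by TGA factors such as PAN, and the CArG box of MADS-domain proteins were found in 0 of the 7 windows, against 5.12%, 23.0% and 3.04% of all windows. The absence of these letters from a short window says nothing of more distant sites.

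PAN encodes a bZIP transcription factor of the TGA class that takes part in the activation of AG and in setting floral organ number. Its level was 22.8, 18.3 and 16.8 RPM in the DMSO libraries 1 to 3 and 11.4, 8.85 and 10.5 RPM in the DEX libraries. Every DEX library was thus below every DMSO library. The difference was -0.85 (SE 0.145, 95% interval -1.15 to -0.54, limma adjusted p = 8.54e-05), and 19.4% of all genes had a larger absolute difference. PAN passed with each library left out, with differences from -0.94 to -0.73. In the RefSeq gene models 29.7% of the exon bases of PAN are overlapped by exons of AT1G68630 and 12.8% by the long non-coding RNA AT1G09003, both on the opposite strand and both absent from the analysed table. Whether strand was used in counting is not given in the sources used here, so reads of PAN and of these genes cannot be told apart.

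ULT1 encodes a SAND-domain protein that works with trithorax-type chromatin factors against Polycomb repression and promotes AG expression. It had 32.3, 26.8 and 30.9 RPM in DMSO and 16.1, 20.7 and 20.2 RPM in DEX. The lowest DMSO library was above the highest DEX library. The difference was -0.64 (SE 0.121, 95% interval -0.89 to -0.38, limma adjusted p = 0.000241). It passed with each library left out, the differences lying between -0.71 and -0.53. The ratio of ULT1 to PAN, which does not depend on the scaling of a library, was 1.42 to 1.84 in DMSO and 1.41 to 2.34 in DEX, so the groups overlapped.

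KNU, the C2H2 zinc finger repressor of WUS that AG induces, was among the weaker genes, with 89.6% of all genes higher in mean RPM. It had 2.73, 3.96 and 3.16 RPM in DMSO, or 34, 54 and 40 reads, and 1.31, 1.87 and 2.45 RPM in DEX, or 14, 27 and 35 reads. The groups did not overlap, but DMSO-1 and DEX-3 were close together. The difference was -0.59 (SE 0.221, 95% interval -1.05 to -0.12, limma adjusted p = 0.0315). The spread of KNU within each treatment was little above counting error, with a chi-square per degree of freedom of 1.53 in DMSO and 2.09 in DEX. The call was lost without DMSO-2 (adjusted p = 0.129), DEX-1 (0.128), DMSO-3 (0.0647) or DEX-2 (0.0602), and with DESeq2 on the recovered reads (adjusted p = 0.0573). The added 1 RPM also understates the change of so weak a gene: the difference was -0.80 with 0.1 RPM added and -0.27 with 5 RPM added. The ratio of KNU to PAN was 0.120 to 0.216 in DMSO and 0.115 to 0.233 in DEX, again overlapping.

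CRC encodes a YABBY transcription factor that directs carpel and nectary growth and is active from early carpel stages on. It was by far the most abundant of the set, with 85.1, 102 and 100 RPM in DMSO and 129, 142 and 97.8 RPM in DEX. DEX-1 and DEX-2 were above all DMSO libraries, while DEX-3 lay between DMSO-1 and DMSO-3. The difference was 0.34 (SE 0.109, 95% interval 0.11 to 0.57, limma adjusted p = 0.0131). Without DEX-3 it was 0.50 (adjusted p = 1.28e-07), and its call was lost when DMSO-1 (0.26, adjusted p = 0.0907), DEX-2 (0.23, adjusted p = 0.0918) or the intensity trend of limma (adjusted p = 0.0951) was left out. The spread between libraries was well above counting error, the chi-square per degree of freedom of CRC being 11.6 in DMSO and 58.9 in DEX. Of 5 markers of ovules and late carpels 3 were measured, 1 of which rose. The others, BEL1 and SHP2, did not pass, the mean of BEL1 being 4.80 RPM in DMSO and 4.14 RPM in DEX. The summed level of the 3 was 12.2, 14.0 and 8.82 RPM in DEX, in the same order as CRC. In DMSO the sum was 9.25, 10.9 and 8.06 RPM. Among the DMSO libraries the order differed, DMSO-3 having the lowest sum of these markers and DMSO-1 the lowest CRC. The part of these markers, and of the anther markers, in the rise of CRC was not tested. The marker that rose, SHP1 (AT3G58780), a MADS-box gene of the carpel margin and fruit, went from 3.61 ± 0.321 to 6.08 ± 1.57 RPM (SD, n = 3, limma adjusted p = 0.0151), and its call was lost without DEX-2 (0.0979) or DMSO-3 (0.0558).

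The levels of CRC and of genes that fell were also compared within libraries. The ratio of CRC to ULT1 was 2.63, 3.81 and 3.24 in DMSO and 8.02, 6.83 and 4.84 in DEX. The ratio of CRC to PAN was 3.74, 5.58 and 5.94 in DMSO and 11.3, 16.0 and 9.32 in DEX. Neither ratio overlapped between the groups. Of the 21 pairs among the 7 genes, 10 had ratios that did not overlap, both of these included. The pairs shown were taken because CRC rose and the others fell, so their ratios restate those calls. In DEX-3, where CRC was within the DMSO range, they reflect the lower ULT1 and PAN. Of CRC exon bases 1.68% are shared with the end of SPL6 on the opposite strand.

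SUP encodes a C2H2 zinc finger repressor that keeps the stamen whorl from spreading into the carpel whorl, and per length of exon it had the lowest mean of the 7 in both treatments. It had 1.93, 1.91 and 2.13 RPM in DMSO and 2.52, 2.28 and 1.68 RPM in DEX, which is 24 to 33 reads per library. The DEX values lay on both sides of the DMSO values. The difference was 0.07 with a 95% interval of -0.38 to 0.52 (limma adjusted p = 0.792). Differences of either sign within that interval are thus compatible with these libraries. The spread between libraries of SUP was near or below counting error (chi-square per degree of freedom 0.101 in DMSO and 1.15 in DEX).

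RBL encodes a Noc2-family protein, related to a yeast factor of ribosome assembly. It had 20.2, 15.8 and 15.3 RPM in DMSO and 17.6, 19.8 and 17.2 RPM in DEX. DMSO-1 was the highest of the 6 libraries and the other DMSO libraries were the lowest. The difference was 0.09 (95% interval -0.18 to 0.37, limma adjusted p = 0.561). In the same libraries the ratio of PAN to RBL was 1.13, 1.16 and 1.10 in DMSO and 0.649, 0.446 and 0.610 in DEX. PAN thus had more reads than RBL in each DMSO library and fewer in each DEX library. As PAN fell and RBL did not pass, this ratio restates those results.

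SQN encodes the cyclophilin CYP40, a partner of HSP90 that promotes the activity of ARGONAUTE1, through which microRNAs act. It had 14.2, 17.2 and 17.4 RPM in DMSO and 18.5, 16.9 and 22.7 RPM in DEX. DEX-1 and DEX-3 were above the DMSO libraries and DEX-2 was within their range. The difference was 0.24 (95% interval -0.05 to 0.52, limma adjusted p = 0.144), and it passed with no library left out, the lowest adjusted p being 0.0774 without DEX-2. In the annotation 4.89% of SQN exon bases overlap the pseudogene AT2G15800 on the opposite strand.

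**Figure D2:**
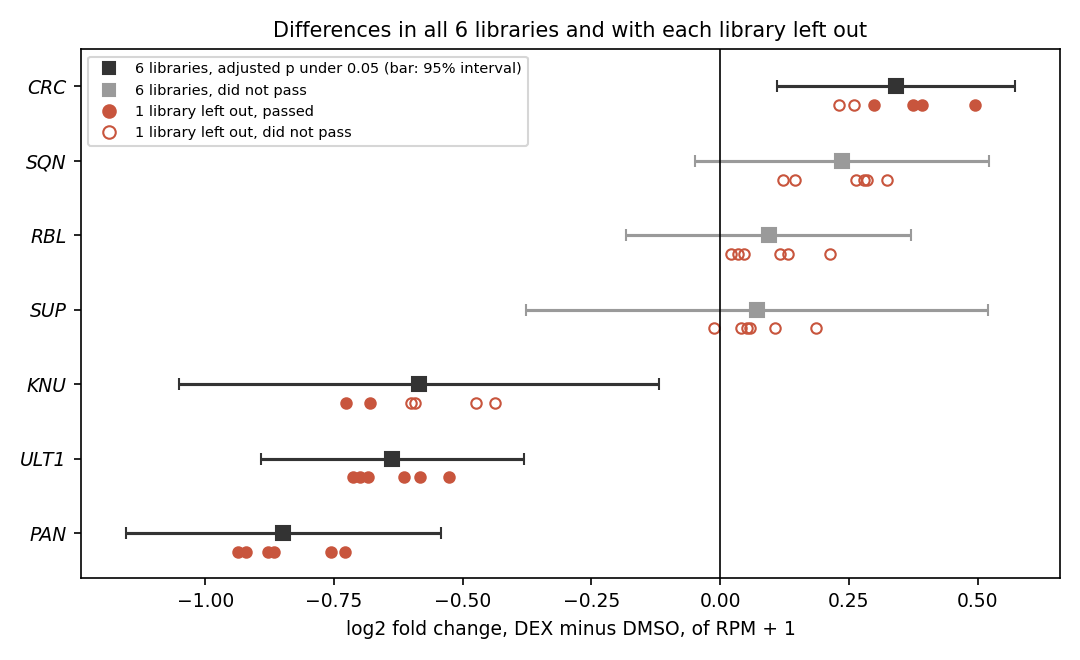
Log2 fold change, DEX minus DMSO, of RPM + 1 (horizontal axis) for the 7 genes. Squares are the difference over all 6 libraries with its 95% interval, black where the adjusted p was under 0.05, and circles are the 6 differences with 1 library left out, filled where they passed. PAN and ULT1 passed each time, KNU lost its call in 4 of the 6 and CRC in 2 of the 6.

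Levels can be compared between genes only per length, so RPM were also divided by the kilobases of annotated exon. On that scale CRC had 84.7 ± 8.28 RPM per kilobase in DMSO (SD, n = 3), followed by ULT1 with 12.9 ± 1.23, SQN with 10.7 ± 1.20, PAN with 10.3 ± 1.65, RBL with 6.78 ± 1.07, KNU with 4.17 ± 0.789 and SUP with 1.78 ± 0.112. Neighbours in this order did not overlap between libraries, except SQN and PAN. In DEX the order was CRC with 109 ± 19.9, SQN with 12.8 ± 1.99, ULT1 with 8.18 ± 1.10, RBL with 7.23 ± 0.565, PAN with 5.48 ± 0.692, KNU with 2.38 ± 0.725 and SUP with 1.93 ± 0.389. ULT1 and RBL overlapped there, as did KNU and SUP. KNU was thus above SUP in each DMSO library, at 3.47 to 5.03 against 1.71 to 1.91 RPM per kilobase, whereas in DEX the lowest KNU value, 1.66, was below the highest SUP value, 2.26.

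**Figure D3:**
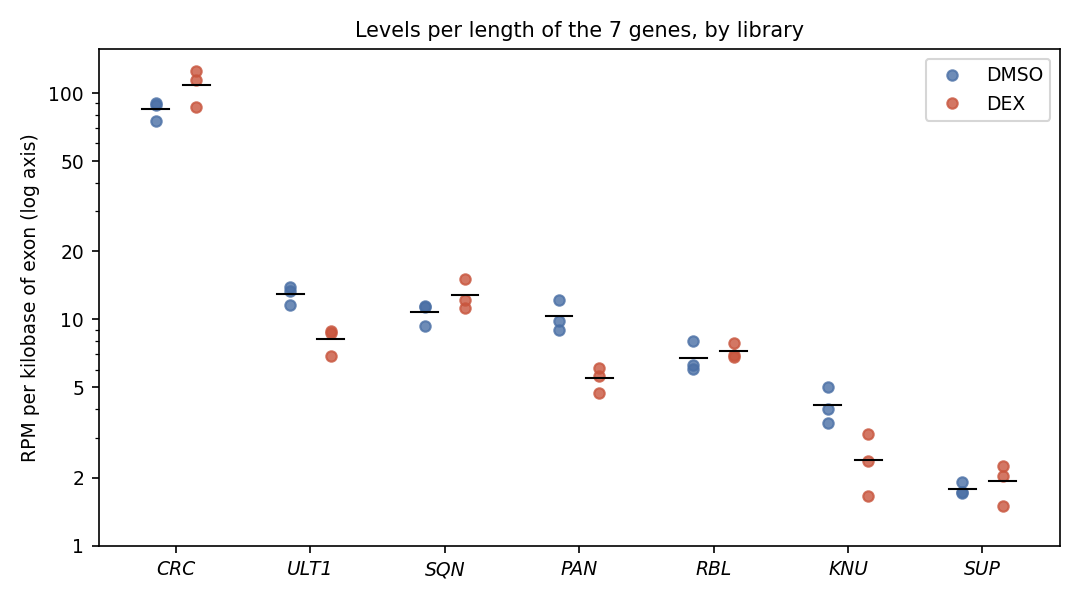
RPM per kilobase of exon (vertical log axis) of the 7 genes, ordered by their DMSO mean. Points are libraries and black lines the means of 3. CRC stands well above the rest in both treatments, at 84.7 in DMSO and 109 in DEX, and the DEX points of KNU reach down to those of SUP.

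Genes known to act with the 7, or related to them, were described from 10 lists. Together these hold 85 genes besides the 7, of which 75 were measured, and 28 of them fell and 16 rose. That is 58.7% of those measured, beside 57.7% of all genes, with a median difference of -0.13. Over all genes 28.1% fell and 29.6% rose, the background for the counts of each list below. AG, MIF2, ULT2, INO and 6 further list genes were not analysed here.

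Among 17 measured genes of the stem cell and AG circuit, 6 fell, 3 rose and 8 did not pass (median -0.18). WUS (AT2G17950), the target of KNU, had 4.82, 3.59 and 3.87 RPM in DMSO and 4.67, 2.49 and 1.33 RPM in DEX, and its difference of -0.50 did not pass (95% interval -1.06 to 0.06, limma adjusted p = 0.116). Only without DEX-1, the DEX library within the DMSO range, did WUS pass, at -0.83 (adjusted p = 0.00781). CLV3 (AT2G27250), the stem cell peptide, had 3.38, 2.05 and 2.21 RPM in DMSO and 2.24, 1.52 and 3.99 RPM in DEX, a difference of -0.02. ARF3 itself (AT2G33860) was lower in each DEX library, at 140 to 149 RPM against 242 to 258 RPM, in which reads of the transgene and of the mutant allele are pooled. AP2 (AT4G36920), which opposes AG, fell from 66.1 ± 3.94 to 44.1 ± 3.21 RPM (limma adjusted p = 2.20e-05), and CRN (AT5G13290), a receptor-like partner of CLV2, from 20.1 ± 1.94 to 14.5 ± 1.47 RPM (adjusted p = 0.00625). The 3 that rose were SEP1, SEP2 and SEP3, MADS-box genes whose proteins act in complexes with AG. SEP2 (AT3G02310) rose from 116 ± 2.77 to 161 ± 1.38 RPM, SEP1 (AT5G15800) from 40.2 ± 0.872 to 54.8 ± 2.26 RPM, and SEP3 (AT1G24260) from 118 ± 4.68 to 150 ± 7.53 RPM.

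Of 5 measured partners and targets of KNU, which include WUS, CLV3 and the receptor gene CLV1, 1 fell and none of the others passed (median -0.12). HDA19 (AT4G38130), a histone deacetylase of the repressor complex that KNU enters, fell from 206 ± 6.09 to 150 ± 2.69 RPM (limma adjusted p = 6.95e-06). Of 5 genes that CRC or SUP is known to control, 2 rose and 2 fell (median -0.13). PI (AT5G20240), a stamen and petal gene, rose by 0.63 (SE 0.0614), and YUC4 (AT5G11320), an auxin synthesis gene that CRC activates and SUP represses, fell from 12.7 ± 0.708 to 8.13 ± 0.782 RPM (limma adjusted p = 0.00201). TRN2 (AT5G46700), which CRC represses, rose by 0.22 (adjusted p = 0.0440), and AP3 (AT3G54340) fell by 0.23 (adjusted p = 0.0209). The call of TRN2 was lost without DMSO-2 (adjusted p = 0.144), DMSO-3 (0.139), DEX-3 (0.0997) or DEX-1 (0.0738), and that of AP3 without DMSO-2 (0.0889) or DMSO-3 (0.0678).

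The other YABBY genes did not rise with CRC. Of 4 measured, FIL (AT2G45190) fell from 249 ± 9.40 to 157 ± 28.5 RPM and YAB3 (AT4G00180) from 128 ± 12.5 to 99.1 ± 17.3 RPM, while YAB2 and YAB5 did not pass (list median -0.33). The call of YAB3 was lost without the intensity trend of limma (adjusted p = 0.0628). In both FIL and YAB3, genes of the lower side of organs, DEX-3 was the lowest library, as it was for CRC among the DEX libraries. Of 4 measured C2H2 relatives of SUP and KNU, JAG (AT1G68480), which promotes organ growth, fell from 15.1 ± 0.690 to 8.23 ± 1.74 RPM (limma adjusted p = 0.000273), and the other 3 did not pass (list median -0.45). Without DMSO-3 or DEX-2, 2 of the 4 fell.

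Among 11 TGA and BOP genes, relatives and partners of PAN, 5 rose, 2 fell and 4 did not pass (median 0.30), beside 29.6% and 28.1% of all genes that rose and fell. Without DMSO-2, 3 rose, and without DMSO-1 or DMSO-3, 1 fell. TGA9 (AT1G08320), needed with TGA10 for anther development, rose from 19.0 ± 1.32 to 34.3 ± 5.19 RPM (limma adjusted p = 1.59e-05), TGA1 (AT5G65210) from 1.96 ± 0.391 to 3.72 ± 0.330 RPM and TGA4 (AT5G10030) from 0.959 ± 0.150 to 2.11 ± 0.406 RPM, together with TGA3 and TGA5. TGA1 and TGA4 are known for defence. TGA4, 1 of the 5 that rose, reached 1 RPM in 1 DMSO library and in 3 DEX libraries. It thus met the minimum of the table only through DEX. The 2 that fell with PAN were BOP1 (AT3G57130), a co-regulator that binds PAN, from 4.85 ± 0.935 to 2.18 ± 0.652 RPM (adjusted p = 0.00206), and TGA10 (AT5G06839), from 6.77 ± 1.67 to 3.93 ± 0.376 RPM. The call of TGA4 needed both DEX-2 (adjusted p = 0.0699 without it) and DMSO-2 (0.0574), and that of TGA10 needed both DMSO-3 (0.0575) and DMSO-1 (0.0573). Of the 4 measured anther markers 3 also rose and SPL/NZZ did not. AMS and MS2, among those that rose, met the minimum of the table only through DEX. The part of the anther markers in the rise of TGA9 was not tested.

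Chromatin genes that work with or against ULT1 were listed together with KAN1. Of 9 measured, 4 fell and 2, LHP1 and KAN1, rose (median -0.01). ATX1 (AT2G31650), the trithorax methyltransferase that binds ULT1, fell from 7.33 ± 0.120 to 4.09 ± 0.754 RPM (limma adjusted p = 0.00213). The Polycomb genes CLF (AT2G23380), from 14.2 ± 0.735 to 5.76 ± 0.838 RPM, MSI1 (AT5G58230), from 106 ± 5.15 to 66.1 ± 5.14 RPM, and FIE (AT3G20740), from 12.8 ± 1.15 to 9.11 ± 0.368 RPM, fell as well. LHP1 (AT5G17690), which reads the Polycomb mark, and KAN1 (AT5G16560), a gene of the lower side of organs, rose by 0.37 (adjusted p = 0.0281) and 0.45 (adjusted p = 0.0440), each with overlapping groups. Of the 6 fits with 1 library left out KAN1 passed only in that without DEX-3 (0.70), its adjusted p being 0.0651 to 0.296 in the others, and it did not pass with robust moderation (0.0685). LHP1 did not pass without DMSO-3 (0.162), DEX-1 (0.118) or DMSO-2 (0.110).

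Of 5 nucleolar partners and relatives of RBL, AT5G38720, annotated as a ribosomal RNA-processing 7 protein, rose from 22.6 ± 0.817 to 30.4 ± 2.84 RPM (limma adjusted p = 0.00325), and the other 4 did not pass, with a list median of 0.03. Without DEX-2, 2 of the 5 rose. Among 10 genes of the HSP90 and microRNA machinery in which SQN acts, 6 fell, 1 rose and 3 did not pass (median -0.34). Of all genes 28.1% fell and 29.6% rose. With 1 library left out 5 or 6 of the 10 fell, and without DMSO-2, 2 of the 10 rose. With edgeR, DESeq2, a pseudocount of 0.1 or no intensity trend, 5 fell. HSP90.1 (AT5G52640), the heat-inducible form, rose from 41.3 ± 8.27 to 141 ± 11.6 RPM, while HSP90.2 (AT5G56030) fell from 1254 ± 16.5 to 783 ± 58.6 RPM and HSP90.4 (AT5G56000) from 92.6 ± 1.03 to 53.1 ± 6.42 RPM. HSP90.2, HSP90.3 and HSP90.4 are nearly the same in sequence, and how their reads were divided is uncertain. All 3 are among the 6 that fell, so those 6 may not be separate observations. HEN1 (AT4G20910), the methyltransferase that protects microRNAs, fell from 15.6 ± 1.94 to 7.97 ± 0.875 RPM (limma adjusted p = 6.61e-05).

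SPL genes, the targets of miR156 through which SQN is known to act on leaf shape and phase change, were measured for 8 members, of which 4 fell and 2 rose (median -0.12). SPL15 (AT3G57920) fell from 22.6 ± 0.570 to 7.36 ± 1.97 RPM, SPL9 (AT2G42200) from 71.2 ± 4.80 to 34.6 ± 6.69 RPM and SPL5 (AT3G15270) from 148 ± 7.34 to 99.9 ± 4.35 RPM. SPL4 (AT1G53160) rose from 160 ± 4.22 to 203 ± 7.60 RPM. SPL6 (AT1G69170), the neighbour whose end overlaps CRC, rose by 0.39 (limma adjusted p = 0.0466), with overlapping groups. Like CRC, it had its lowest DEX value in DEX-3, and it did not pass without DEX-1 (adjusted p = 0.214), DMSO-3 (0.187), DEX-2 (0.103) or DMSO-2 (0.0783). The calls of SPL6 (0.0720), TRN2 (0.101), AP3 (0.118), LHP1 (0.0907) and KAN1 (0.133) were also lost without the intensity trend of limma. SPL6 and TRN2 did not pass with median-of-ratios scaling (0.0514 and 0.0511), TMM scaling (0.0508 and 0.0504) or DESeq2 (0.0603 and 0.0738).

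**Figure D4:**
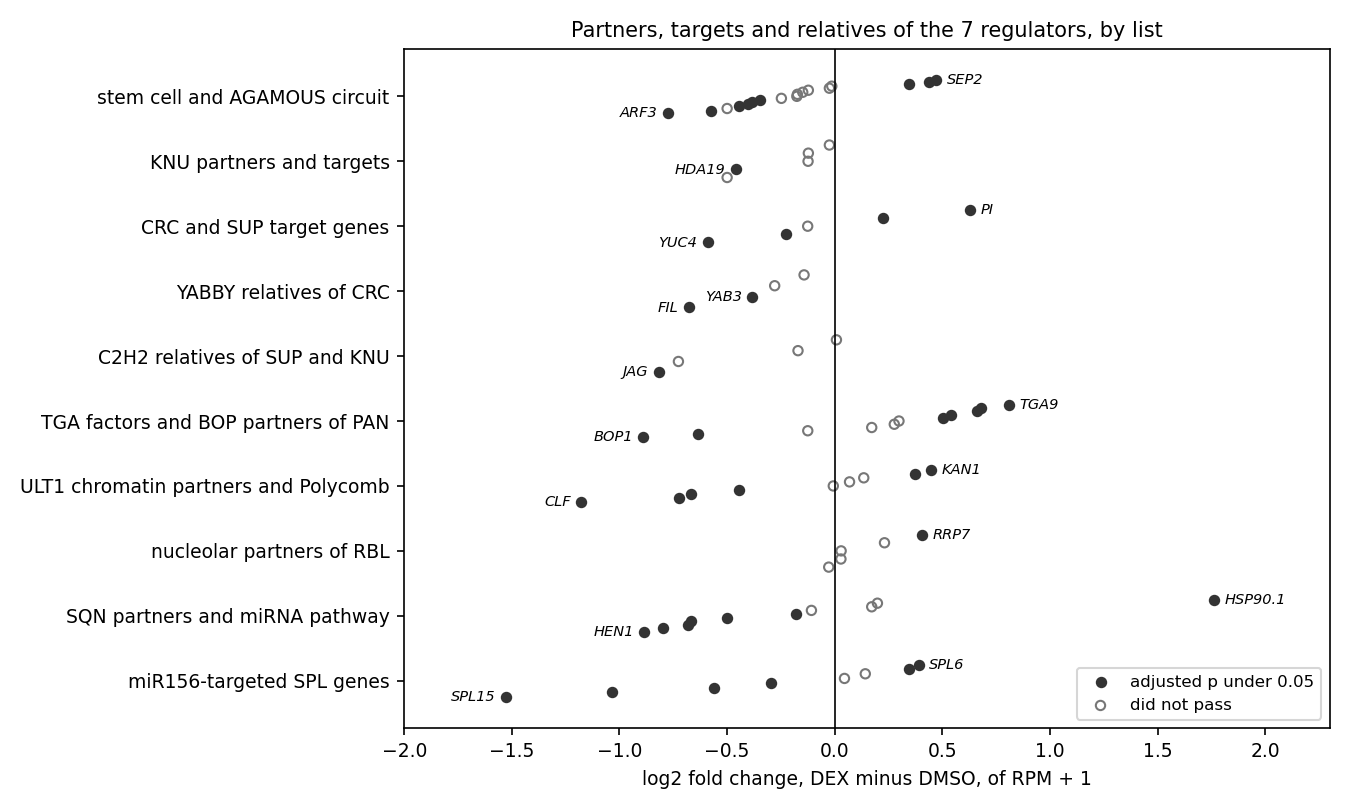
Log2 fold change, DEX minus DMSO, of RPM + 1 (horizontal axis) for the measured genes of the 10 lists, 1 row of points per list. Filled points had an adjusted p under 0.05, open points did not, and the lowest and highest filled point of a list are named. The lists spread to both sides of 0, from SPL15 at -1.53 to HSP90.1 at 1.76.

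For each of the 7 genes the genes of the table with the most similar course over the 6 libraries were found by the root mean square difference of their centred log2 values, given as a description of libraries that all these genes share. For PAN these were PAR2 (0.0609) and the rhomboid gene RBL1 (0.0785), for ULT1 GFA2 (0.0355) and AT3G59670 (0.0470), and for KNU AT4G33760 (0.0653) and CESA4 (0.0681). For CRC they were AT1G21830 (0.0347) and AT3G13030 (0.0369), for SUP AT3G07860 (0.0319) and AT3G03100 (0.0372), for RBL IQD16 (0.0320) and AT5G19740 (0.0440), and for SQN AT3G16010 (0.0439) and AT3G57470 (0.0505). None of these 14 genes was on the lists used here.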

How the data were processed

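RNA was sequenced from 6 inflorescence samples, assigned to DMSO or DEX (3 each) by their labels. Per the submitters' processing notes the tools were TopHat and HTSeq. The sources used here do not give versions, settings, genome build, strand use, treatment duration, harvest time or batch. The table that the authors deposited holds RPM, scaled to 1000000 per library over 17675 genes. All genes in it reach 1 RPM in at least 3 libraries, so the planned minimum removed none, and weaker genes were not analysed here.

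Dividing the RPM by the value of 1 read (0.0691 to 0.0934 RPM) gave whole numbers, within 0.01, for 100% of entries. Poisson intervals (95%, exact) of these reads cover counting error only. Tests were made on log2(RPM + 1) in limma 3.58.1 under R 4.3.3. They used an intensity trend, were two-sided, and were adjusted by Benjamini-Hochberg across the 17675 genes, with 0.05 as threshold. An exact permutation test of 3 against 3 libraries cannot go below p = 0.1 and was not used. No source says that replicates were separate plants. The p-values set a difference only against the scatter within these groups of samples, and that scatter may be technical.

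In simulated counts for DEX against DMSO (17675 genes), 65.7% of 67 changes of 1.5-fold, 88.1% of 67 of 2-fold and 100% of 66 of 4-fold were found by limma, and 8.65% of calls were false. Far fewer genes were changed there than were called in the data. Alternatives were pseudocounts of 0.1 and 5, a minimum of 5 RPM or none, median-of-ratios and TMM scaling, robust moderation, no trend, a replicate block, each library left out, and count tests of the recovered reads. Of these, edgeR 4.0.16 called 5184 genes higher and 4962 lower, and DESeq2 1.42.0 called 4943 and 4748.

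The 7 members and the lists were chosen with earlier results of these data known. Up to 3 called genes per direction are named from each list, by size of change. ARF3, WUS and CLV3 are named whatever their result. Other genes, which spell out small counts, were chosen after their values were seen. RefSeq TAIR10.1 supplied names, exon lengths, overlaps and promoters. It matched 17646 identifiers, including all 7 members, and 29 were unmatched.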

Additional observations from a re-analysis of the deposited data

How the results depend on the processing

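PAN and ULT1 kept their direction and their call in all 17 alternative settings, and RBL and SQN kept their direction and did not pass in any. Over the 7 genes 108 of 117 alternative values kept direction and side of the threshold. The minimum of 5 RPM removed KNU and SUP, which have no value under it, and the absence of a minimum changes nothing, since the table already has one. KNU did not pass with DESeq2 (-0.80, adjusted p = 0.0573), and ranged from -0.73 to -0.44 with 1 library left out, 4 of these 6 values not passing. CRC did not pass without the intensity trend (0.34, adjusted p = 0.0951) and ranged from 0.23 to 0.50 with 1 library left out, 2 of these 6 not passing. SUP, which never passed, ranged from -0.011 to 0.19 with 1 library left out, its sign turning without DEX-1. The cause of these changes was not tested. With the replicate number as a block, KNU was at -0.59 (adjusted p = 0.0300) and CRC at 0.34 (adjusted p = 0.00522), and no call of the 7 genes changed. The block moved the whole table from 5238 to 5264 higher and from 4966 to 4991 lower genes. The numbers are not known to pair the samples. The deviations of libraries with the same number correlated at -0.0471, 0.0622 and 0.0291 across genes. Those of libraries with other numbers correlated at -0.105 to 0.0751. With 3 libraries per treatment this cannot decide whether samples were paired. Scaling moved the median of all genes by less than 0.01 on the log2 scale (from 0.004 to -0.004 at most), and turned no sign among the 7.

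With 1 library left out, 4711 to 5336 genes were higher and 4323 to 5076 lower, and of the pathway genes 11 to 15 were higher and 24 to 30 lower. Of 43 pathway and marker genes named by rule, 9 lost their call in 37 of 721 alternative values, WUS gained one, and CLV3, which never passed, turned to 0.023 with edgeR and 0.019 with DESeq2 and ranged from -0.29 to 0.20 with 1 library left out. Counts of called genes per list moved by over 1.5 times in 39 of 340 values. Depth limits SUP and KNU most, at 14 to 54 reads per library.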
